A study of Mus musculus with 45 samples.

Results

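The genes described here are 45 genes of the cell division cycle, read in transplanted CT26 tumours from mice given antibodies against PD-1, TIGIT or both. They were chosen by name, as textbook members of the DNA replication and mitosis machinery, with earlier results of these data known. Each was found once in both deposited expression tables, out of 47729 genes listed in each. By role, 14 act in DNA replication, 3 regulate the step from G1 into S phase, 4 are transcripts that mark cells from S to M phase, and 24 act in mitosis. All 45 passed the filter on low values in both experiments, which left 15070 tested genes in T2106 and 14914 in T2215.

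The study asked how the anti-PD-1 antibody serplulimab acts when joined to an antibody against TIGIT, a second inhibitory receptor of T and NK cells. CT26, a mouse colon carcinoma line from BALB/c mice that the labels call undifferentiated, was grown under the skin of the flank in HuGEMM mice, which are BALB/c mice with a double knock-in of human PD-1 and human TIGIT. Antibodies or saline were injected into the abdomen 2 times a week from day 8, when tumours measured 90 to 100 mm3, and RNA from whole tumours was sequenced as paired reads of 150 bases. Every mouse, the vehicle group included, carried the same double knock-in, and 3 tumours made up a group. Experiment T2106 held 18 tumours in 6 groups, namely vehicle, serplulimab at 10 mg/kg, HLX53 (anti-TIGIT) at 10 mg/kg, serplulimab at 10 mg/kg with HLX53 at 5 mg/kg, serplulimab with HLX53 at 10 mg/kg each, and pembrolizumab (anti-PD-1) with tiragolumab (anti-TIGIT) at 10 mg/kg each. Experiment T2215 held 27 tumours in 9 groups, namely vehicle, each of the 4 antibodies alone, and the 4 pairs of an anti-PD-1 with an anti-TIGIT antibody, all at 10 mg/kg. The combination of serplulimab with HLX53 at 10 mg/kg each is called the full-dose combination below, and that with HLX53 at 5 mg/kg the lower-dose combination. The labels used here give neither the age nor the sex of the mice. They also do not say whether the 3 tumours of a group were collected together. P-values therefore measure the spread between tumours within groups, estimated for each gene over all groups of an experiment.

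Dividing cells switch these genes on in waves. E2F factors, released when G1 cyclins and their kinase partners inactivate RB, switch on the replication genes in late G1. These are the MCM helicase subunits, the sliding clamp PCNA and the enzymes that supply deoxynucleotides. Later, B-MYB and FOXM1 act with the MuvB complex on promoters holding a CHR element and CCAAT boxes, and switch on the genes of mitosis, namely cyclin B, its kinase CDK1, the Polo and Aurora kinases, the spindle motors and the checkpoint proteins. In a transplanted tumour, most of these transcripts are usually ascribed to the carcinoma cells, while dividing lymphocytes and endothelium also make them.

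The promoters of these genes are shown first, since the replication and mitosis genes are compared throughout. Promoter sequence running from 250 bases before to 50 bases after the start was taken from RefSeq (GRCm38.p6), which matched 37 of the 45 genes through 39 promoters. The CHR letters TTTGAA, searched on both strands, stood in 16 of 21 promoters of mitosis genes, in 2 of 13 of DNA replication genes and in 17.9% of all 32851 promoters of the same length. CCAAT, also on both strands, stood in 19 of 21, in 10 of 13 and in 37.4%, and both motifs together in 16 of 21, in 2 of 13 and in 6.95%. The E2F letters TTTCCCGC, TTTCGCGC, TTTGCCGC or TTTGGCGC stood in 5 of 13 promoters of replication genes (Cdc6, Mcm3, Mcm5, Mcm6 and Mcm7), in 1 of 21 of mitosis genes (Cdk1) and in 2.26% of all promoters. A match is a description of the letters and not a bound site. The 160 bases before the start are printed 5′ to 3′ on the strand of the gene, with E2F, CHR and CCAAT matches in capitals, for 3 mitosis genes (Cdc20, the activator of the anaphase-promoting complex, Cdk1, the mitotic kinase, and Kif11, a spindle motor) and 2 helicase genes (Mcm5 and Mcm6). These 5 were picked after the matches were seen, to show both arrangements.
Cdc20 (chr4:118437344-118437503, minus strand): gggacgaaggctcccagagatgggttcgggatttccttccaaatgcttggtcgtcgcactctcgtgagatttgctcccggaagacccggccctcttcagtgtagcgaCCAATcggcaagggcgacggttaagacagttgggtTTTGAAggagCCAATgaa
Cdk1 (chr10:69352913-69353072, minus strand): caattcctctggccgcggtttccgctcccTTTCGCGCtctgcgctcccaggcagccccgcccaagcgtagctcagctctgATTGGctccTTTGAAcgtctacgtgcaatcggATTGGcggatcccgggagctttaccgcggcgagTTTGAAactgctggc
Kif11 (chr19:37376222-37376381, plus strand): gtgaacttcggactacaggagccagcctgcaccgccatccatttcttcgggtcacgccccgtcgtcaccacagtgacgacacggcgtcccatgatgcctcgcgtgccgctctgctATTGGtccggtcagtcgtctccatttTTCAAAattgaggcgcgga
Mcm5 (chr8:75109349-75109508, plus strand): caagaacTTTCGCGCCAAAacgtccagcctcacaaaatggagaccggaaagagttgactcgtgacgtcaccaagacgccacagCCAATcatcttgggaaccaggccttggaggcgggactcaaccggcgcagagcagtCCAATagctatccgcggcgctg
Mcm6 (chr1:128359706-128359865, minus strand): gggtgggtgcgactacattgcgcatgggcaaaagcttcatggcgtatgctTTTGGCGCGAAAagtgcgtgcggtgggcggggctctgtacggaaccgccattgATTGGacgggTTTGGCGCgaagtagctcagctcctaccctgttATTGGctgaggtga
In Cdc20 the CHR match began at position -18 from the start, behind a CCAAT at -53, and in Kif11 at -19, behind a CCAAT at -45. Cdk1 held CHR matches at -71 and -15, CCAAT at -80 and -48, and an E2F match at -131. Mcm5 held overlapping E2F matches on opposite strands at -153 and -149, Mcm6 held them at -110 and -106 and a further one at -47, and neither held CHR letters in the stretch shown. Over the promoters of all matched members, 21 of 25 CHR matches began at or after 100 bases before the start.

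Several libraries stood apart and 1 label was checked before the results. A library was taken to stand apart where its median correlation with the other tumours of its experiment was under 0.9. In T2106 these were replicate 2 of the lower-dose combination (0.838) and replicates 1 and 3 of the full-dose combination (0.864 and 0.890), and in T2215 replicate 2 of the full-dose combination (0.882). Between 12918 and 14448 genes reached 0.5 FPKM in a library, and FPKM (fragments scaled by transcript length and library size) summed to between 678636 and 911201, with the read depth itself unknown. Most defining markers of colon epithelium were near 0 in the vehicle tumours of T2106, with mean FPKM of 0.434 for Epcam, 0.345 for Cdh1, 0.116 for Cdx2 and 0.0499 for Vil1. The keratins Krt18 and Krt20 were present at 10.6 and 104.6 FPKM.

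Division transcripts were abundant in every tumour. The median FPKM of a member over tumours ran from 7.62 to 262 in T2106 and from 8.36 to 286 in T2215. The mean of log2(FPKM + 0.5) over the 45 genes served as a level for each tumour. In T2106 it was 5.74, 5.82 and 5.73 in the vehicle tumours, a group mean of 5.76 ± 0.0502 (SD, n = 3). Pembrolizumab with tiragolumab stood at 5.48 ± 0.0987, HLX53 at 5.43 ± 0.0333 and serplulimab at 5.29 ± 0.147 (SD, n = 3 each). The lower-dose combination gave 5.27, 3.997 and 5.40 and the full-dose combination 4.29, 5.28 and 4.62, with group means of 4.89 ± 0.777 and 4.73 ± 0.500. All 15 treated tumours of T2106 lay below all 3 vehicle tumours, while the 2 combination groups held the 3 lowest tumours and also spread the most.

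**Figure D1:**
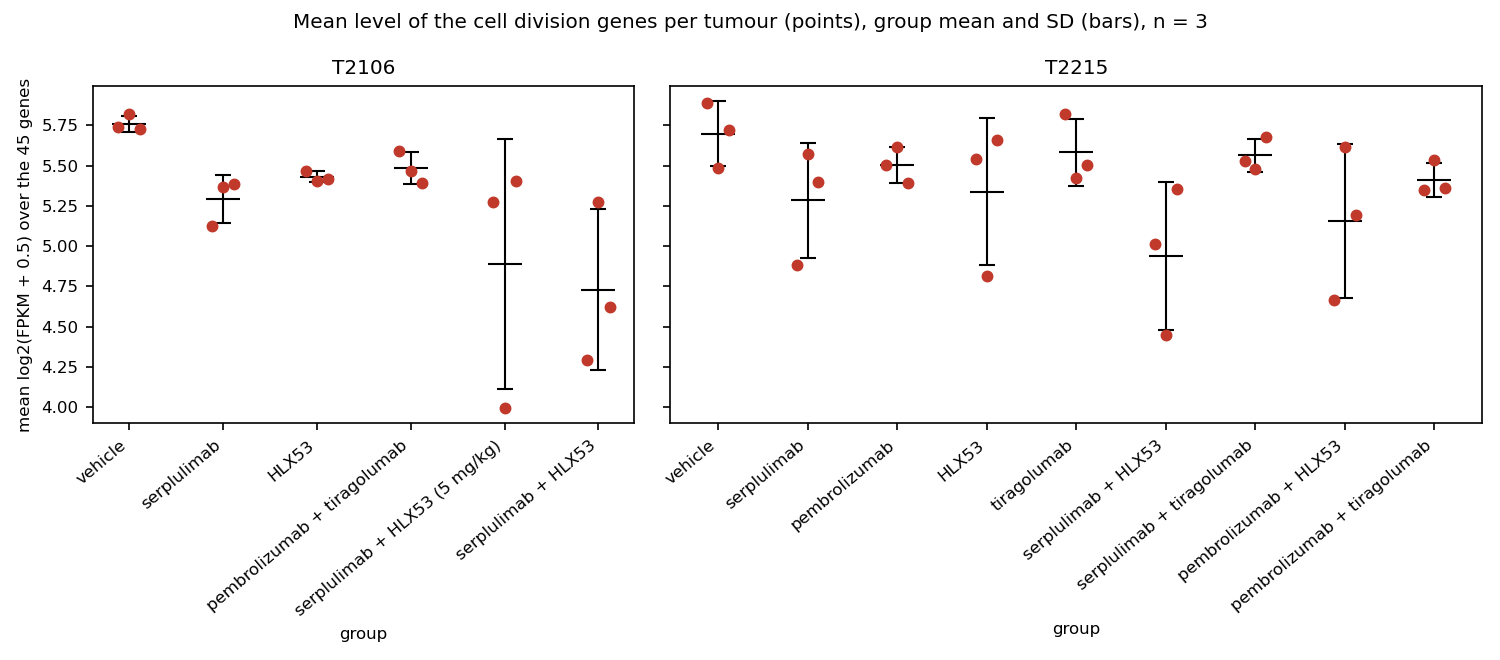
Mean of log2(FPKM + 0.5) over the 45 cell division genes (vertical axis) for each tumour (points), by treatment group (horizontal axis), with the group mean and SD as bars, in T2106 and T2215. In T2106 every treated tumour lies below the 3 vehicle tumours (5.73 to 5.82), and in both experiments replicate 2 of a serplulimab with HLX53 group is the lowest tumour (3.997 and 4.45).

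In T2215 the vehicle tumours gave 5.89, 5.49 and 5.72 (5.70 ± 0.201, SD, n = 3) and the groups overlapped more. Tiragolumab alone (5.58 ± 0.209), serplulimab with tiragolumab (5.56 ± 0.102), pembrolizumab (5.50 ± 0.112) and pembrolizumab with tiragolumab (5.41 ± 0.105) lay nearest to vehicle. HLX53 (5.54, 4.82 and 5.66) and serplulimab (4.88, 5.57 and 5.40) each held 1 tumour far below the rest of the group. The low serplulimab tumour, replicate 1, also had a high level of skeletal muscle markers, given below. Pembrolizumab with HLX53 was spread more evenly (4.66, 5.62 and 5.19). The full-dose combination was the lowest group, at 5.01, 4.45 and 5.36 (4.94 ± 0.458), and lay wholly below the vehicle tumours.

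In both experiments a few tumours were low for most of the genes. In T2106 replicate 2 of the lower-dose combination had the lowest value of 45 of 45 genes, and a vehicle tumour had the highest value of 40 of them (replicate 2 for 25, replicate 1 for 9 and replicate 3 for 6). In T2215 replicate 2 of the full-dose combination was lowest for 38 of 45, and vehicle replicate 1 was highest for 26. Some tumours did not hold this order: replicate 3 of serplulimab in T2215 was the highest of all 27 for 4 genes, Cdc45, Pcna, Ube2c and Birc5 (34.2, 371, 359 and 141 FPKM). In that tumour Mki67, Foxm1 and Hjurp stood at 16.9, 37.3 and 33.2 FPKM, against 32.1, 78.1 and 65.9 in the lowest vehicle tumour of each. Its library had the lowest median log2 level over all tested genes in T2215 (3.09, against 3.38, 3.29 and 3.29 with vehicle). Whether its mixed pattern comes from the library or the tumour was not tested. The ratio of the highest to the lowest tumour had a median of 2.93 for DNA replication genes and 4.54 for mitosis genes in T2106, and of 2.67 and 2.99 in T2215. The widest ratio was 9.38, for Foxm1 in T2106. The heat map of all members shows these low tumours as columns.

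**Figure D2:**
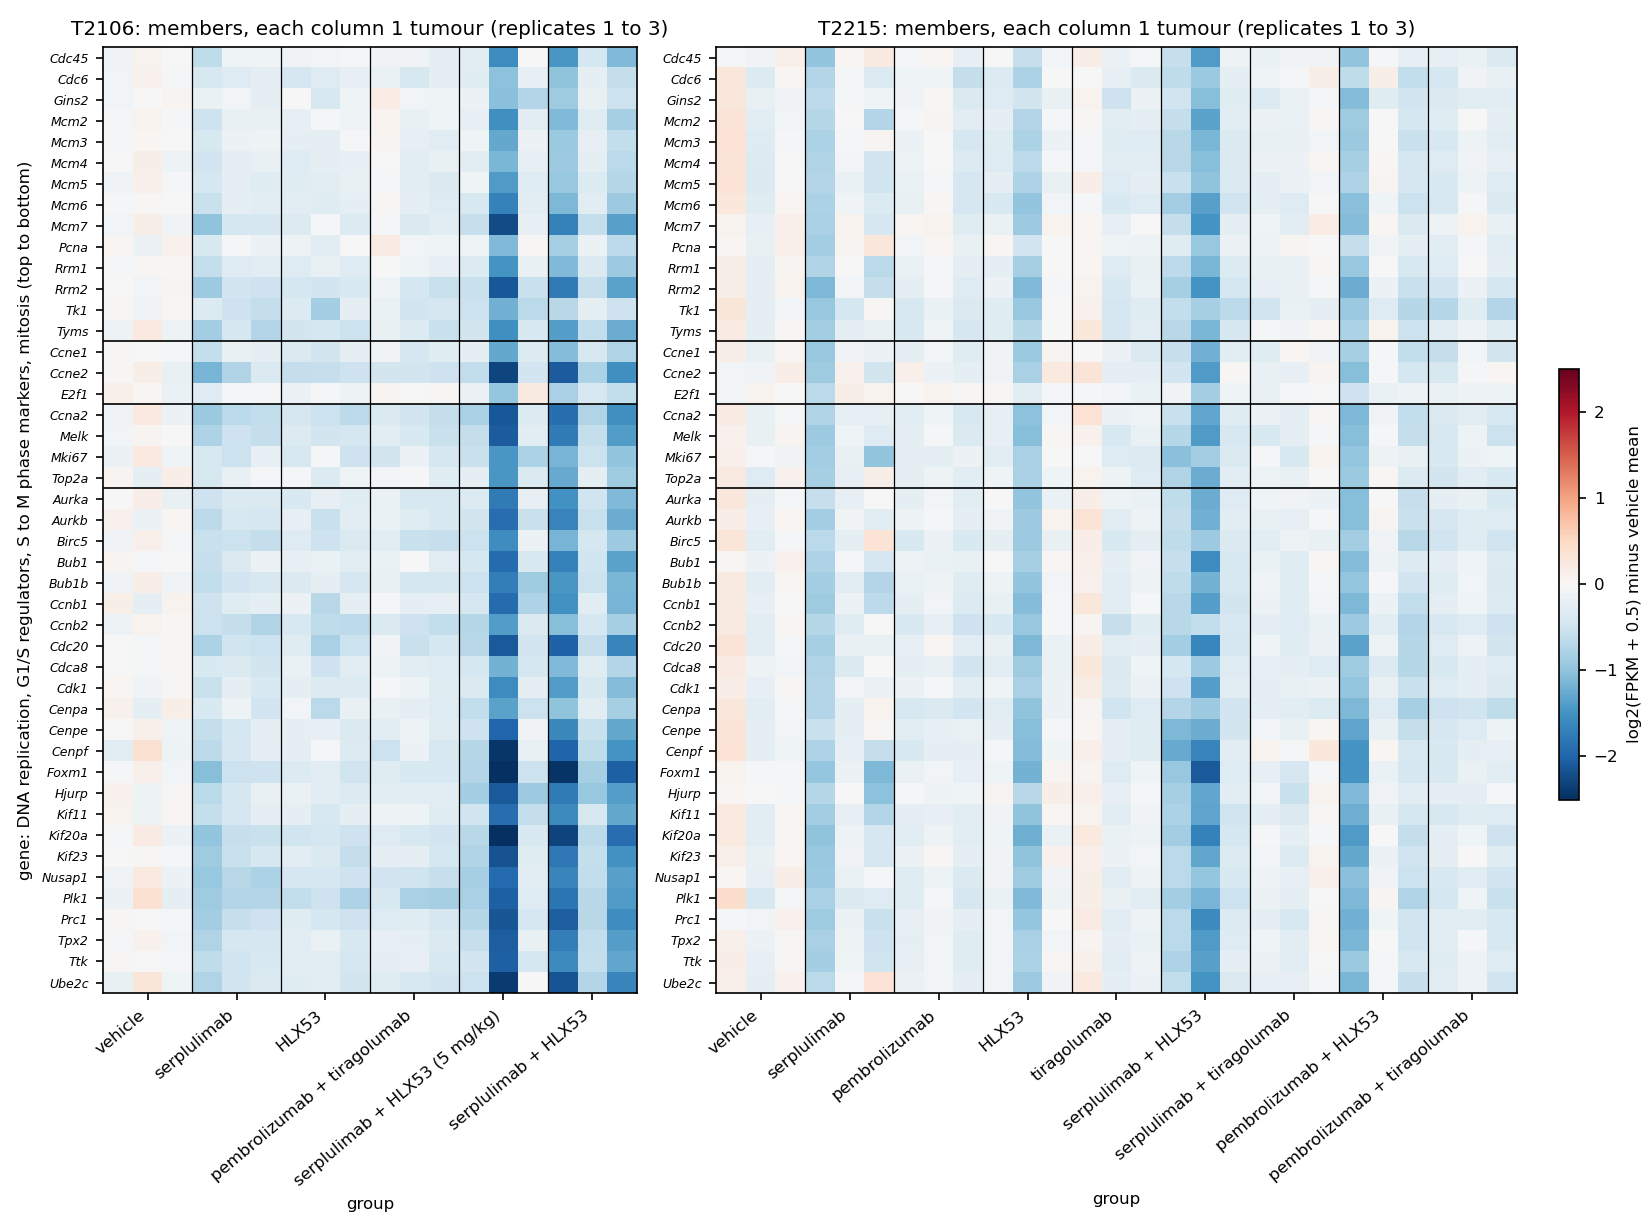
Each row is 1 of the 45 genes, ordered by role, and each column 1 tumour, grouped by treatment. Colour gives log2(FPKM + 0.5) minus the gene's mean over the vehicle tumours of the same experiment, capped at the ends of the scale, and the low tumours appear as columns that are low for nearly every gene, such as replicate 2 of the lower-dose combination in T2106, lowest for 45 of 45.

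The full-dose combination had lower division transcripts than vehicle in T2106. By limma with Benjamini-Hochberg adjustment over all 15070 genes, 43 of 45 members fell at an adjusted p under 0.05, where 20.6% of all genes fell and 23.4% rose. The 3 combination tumours lay below all 3 vehicle tumours for 45 of 45 members, against 33.6% of all genes. The median difference of the members was -1.05 on the log2 scale, a ratio of 0.484, against -0.04 over all genes. By role, 12 of 14 DNA replication genes (median -0.71), 3 of 3 G1/S regulators (-0.75), 4 of 4 S to M phase markers (-1.07) and 24 of 24 mitosis genes (-1.17) fell. The 2 that missed the threshold were Pcna and Mcm3 (a helicase subunit, -0.58 ± 0.25 SE, adjusted p = 0.0695). In bulk tumour RNA, fewer dividing cells in a sample and less of these transcripts per cell cannot be told apart. The call rested on few tumours: limma called 0 members without replicate 1 of the combination, 1 without replicate 3 and 45 without replicate 2, and 22, 21 and 27 without vehicle replicates 1, 2 and 3. Without the 3 libraries of T2106 that stood apart, it called 1, with a median difference of -0.51. With no filter on low values it called 9. The share of all genes called in these refits is not given, so the counts show only how far the calls depended on tumours and settings.

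**Figure D3:**
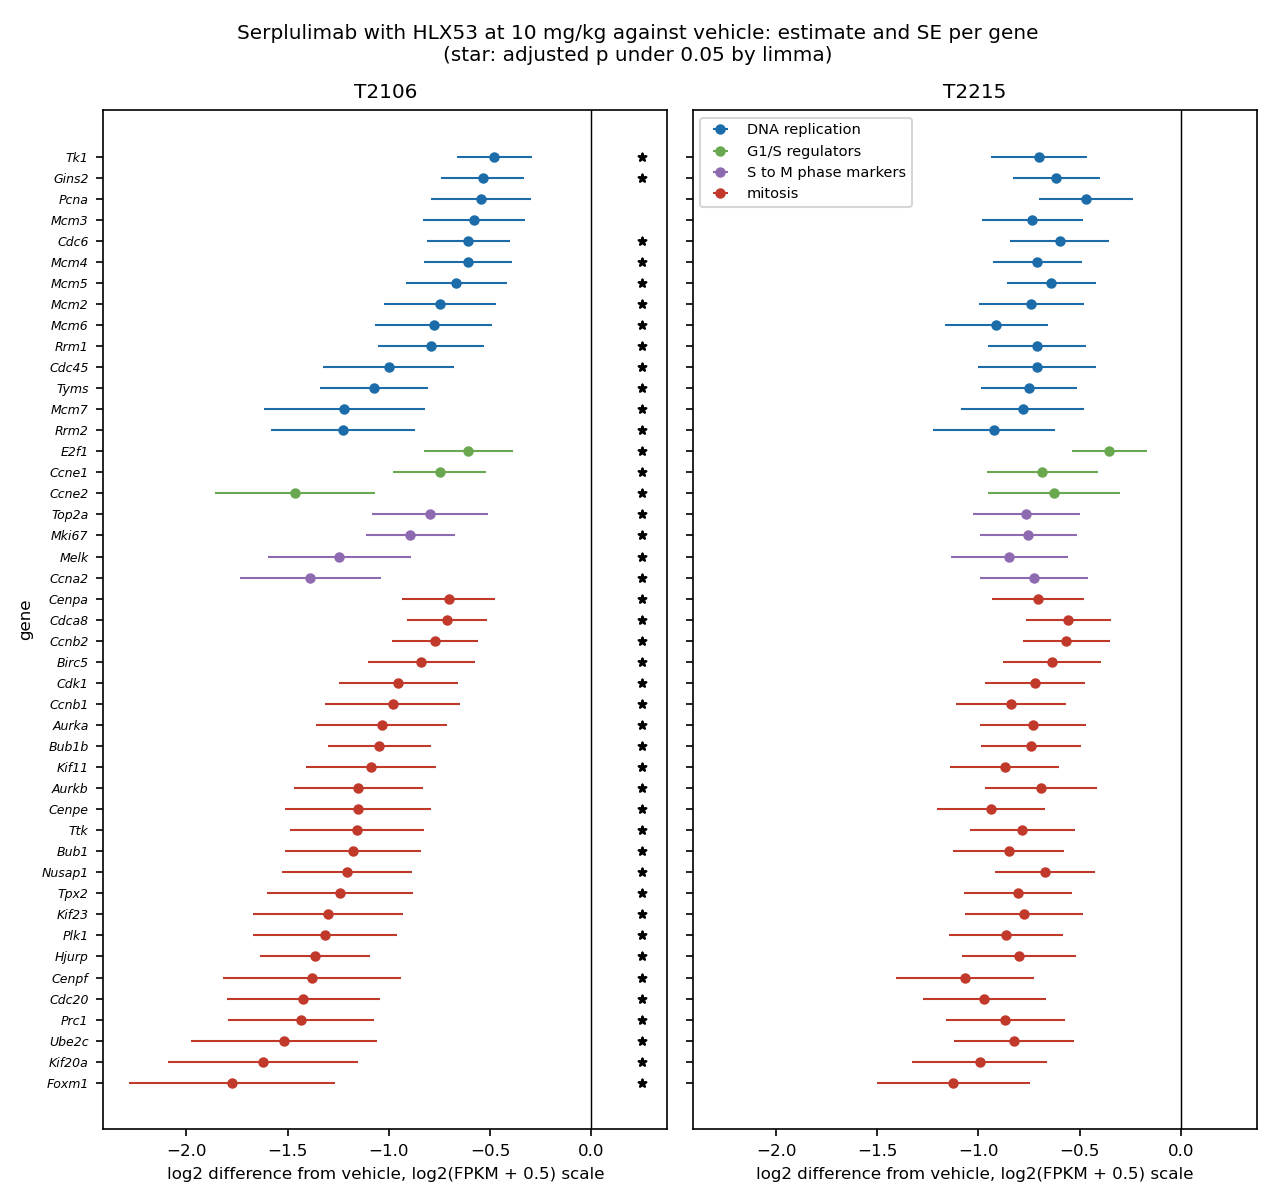
Difference from vehicle on the log2(FPKM + 0.5) scale (horizontal axis) for the full-dose combination, with each gene on a row, a point for the estimate, a bar for 1 SE and a star for an adjusted p under 0.05, coloured by role. All 45 estimates lie below 0 in both experiments, with 43 stars in T2106 and 0 in T2215.

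Among the DNA replication genes, Rrm2, Mcm7 and Tyms fell furthest with the full-dose combination. Rrm2, the small subunit of ribonucleotide reductase (chromosome 12, 24708241 to 24714146, plus strand, GRCm38), had 99.5, 95.01 and 104 FPKM in the vehicle tumours of T2106, 28.9, 66.9 and 38.8 with the full-dose and 67.9, 22.4 and 67.5 with the lower-dose combination. It had 53, 71.4 and 69.4 with serplulimab, 73.6, 71.6 and 75.8 with HLX53 and 92.7, 73.01 and 67.5 with pembrolizumab and tiragolumab. Every treated tumour lay below the vehicle tumours, and the fall with the full-dose combination was -1.23 ± 0.35 on the log2 scale (SE, limma adjusted p = 0.0183). In T2215, Rrm2 had 104, 78.4 and 99.4 FPKM with vehicle, 52.3, 32.8 and 68.5 with the full-dose combination, 39.3, 84.1 and 63.6 with pembrolizumab and HLX53 and 42.7, 88.8 and 61.4 with serplulimab. It had 83.8, 43.05 and 89.95 with HLX53, 78.1, 90.6 and 74.2 with pembrolizumab, 99.04, 71.1 and 82.6 with tiragolumab, 80.7, 81.97 and 91.9 with serplulimab and tiragolumab and 66.7, 83.7 and 68.4 with pembrolizumab and tiragolumab. There the full-dose combination alone lay wholly below vehicle, by -0.92 ± 0.30, with an adjusted p of 0.239.

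Tyms, thymidylate synthase (chromosome 5, 30058202 to 30073617, minus strand), measured 71.8, 92.8 and 72 FPKM with vehicle in T2106, 29.9, 51.2 and 32.8 with the full-dose and 56.6, 26.6 and 60.2 with the lower-dose combination. The other groups had 42.9, 58.7 and 47.05 with serplulimab, 56.5, 57.8 and 54.04 with HLX53 and 69.1, 61.95 and 53.2 with pembrolizumab and tiragolumab. All 15 treated tumours were below the vehicle tumours, and the full-dose difference was -1.07 ± 0.27 (adjusted p = 0.0124). In T2215 it measured 79.3, 58.9 and 70.4 with vehicle, 42.6, 30.9 and 51.7 with the full-dose combination, 39.5, 73.01 and 47.2 with pembrolizumab and HLX53, 37.8, 58.6 and 60.7 with serplulimab and 55.7, 42.1 and 68.7 with HLX53. The remaining groups had 52.6, 64.3 and 51.5 with pembrolizumab, 82.6, 51.2 and 56.7 with tiragolumab, 67.8, 65.2 and 70.7 with serplulimab and tiragolumab and 57.8, 62.8 and 55.7 with pembrolizumab and tiragolumab. Again the full-dose combination was the only group without overlap with vehicle (-0.75 ± 0.24, adjusted p = 0.239).

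Mcm5, a subunit of the MCM helicase that opens DNA at origins (chromosome 8, 75109569 to 75128439, plus strand), stood at 44.1, 50.95 and 45.4 FPKM with vehicle in T2106, 24.02, 36.96 and 28.2 with the full-dose and 43.2, 17.3 and 37.2 with the lower-dose combination. Serplulimab gave 34.2, 39.3 and 37.8, HLX53 37.7, 38.7 and 41.3 and pembrolizumab with tiragolumab 45.7, 38.7 and 36.2. Only pembrolizumab with tiragolumab overlapped vehicle, and the full-dose difference was -0.67 ± 0.25 (adjusted p = 0.0439). Of the other helicase subunits, Mcm7 had the largest difference, with mean FPKM of 53.4 against 118.9 (-1.22 ± 0.40, adjusted p = 0.0267), although its exons hold the microRNA genes Mir25 and Mir93 on the same strand. In T2215 Mcm5 stood at 67.2, 41.4 and 53.5 with vehicle, 35.8, 26.2 and 41.4 with the full-dose combination, 31.02, 55.6 and 39.6 with pembrolizumab and HLX53, 31.7, 46.9 and 37.4 with serplulimab and 45.04, 31.04 and 46.9 with HLX53. Pembrolizumab gave 47.1, 51.02 and 39.8, tiragolumab 59.5, 42.3 and 44.97, serplulimab with tiragolumab 45.04, 47.8 and 50.6 and pembrolizumab with tiragolumab 40.8, 48.3 and 42.4. The full-dose combination lay narrowly below vehicle (-0.64 ± 0.22, adjusted p = 0.239) and the other 7 groups overlapped it. Its highest tumour had 41.38 FPKM and the lowest vehicle tumour 41.44.

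Pcna, the sliding clamp of the replication polymerases (chromosome 2, 132249162 to 132253314, minus strand), was the most abundant of the fixed panel of 12 genes. It measured 293, 256 and 305 FPKM with vehicle in T2106, 159, 256 and 181 with the full-dose and 262, 131 and 289 with the lower-dose combination. It measured 218, 276 and 257 with serplulimab, 261, 237 and 287 with HLX53 and 326, 271 and 264 with pembrolizumab and tiragolumab. The full-dose tumours lay below the vehicle tumours by a margin of under 1 FPKM, and the difference of -0.55 ± 0.25 did not pass (adjusted p = 0.0799). In T2215 it measured 319, 269 and 336 with vehicle, 248, 158 and 279 with the full-dose combination, 202, 289 and 263 with pembrolizumab and HLX53, 168, 323 and 371 with serplulimab and 315, 222 and 309.5 with HLX53. Pembrolizumab gave 292, 319.6 and 272, tiragolumab 317, 286 and 280.5, serplulimab with tiragolumab 283, 324 and 306 and pembrolizumab with tiragolumab 254, 299.8 and 256. All 8 treated groups overlapped vehicle, and the full-dose difference was -0.47 ± 0.23 (adjusted p = 0.287). Pcna, Tyms, Ccnb1 and Ccnb2 have named pseudogenes, so a part of their reads may be shared with those copies.

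The G1/S regulators are Ccne1 and Ccne2, the E cyclins that drive entry into S phase, and E2f1, one of the E2F transcription factors. Ccne1 had 22.6, 22.02 and 21.6 FPKM with vehicle in T2106, 10.1, 16.6 and 12.8 with the full-dose and 18.5, 8.86 and 17.4 with the lower-dose combination. It had 14.4, 19.2 and 18.5 with serplulimab, 17.04, 15.8 and 18.6 with HLX53 and 20.6, 16.4 and 17.7 with pembrolizumab and tiragolumab. No treated tumour reached the vehicle tumours, and the full-dose difference was -0.75 ± 0.23 (limma adjusted p = 0.0222). Ccne2 fell from a mean of 25.9 to 9.68 FPKM (-1.46 ± 0.39, adjusted p = 0.0151) and E2f1 from 25.8 to 16.8 (-0.61 ± 0.22, adjusted p = 0.0391). In T2215 Ccne1 had 24.6, 19.4 and 22.9 with vehicle, 14.7, 9.39 and 18.4 with the full-dose combination, 12.3, 21.3 and 14.3 with pembrolizumab and HLX53, 11.3, 20.8 and 20 with serplulimab and 20.9, 11.4 and 23.3 with HLX53. It had 19.1, 21.1 and 17.9 with pembrolizumab, 22.5, 19.9 and 17.2 with tiragolumab, 17.8, 23.1 and 20.98 with serplulimab and tiragolumab and 14.6, 21.2 and 16.1 with pembrolizumab and tiragolumab. The full-dose combination was below vehicle (-0.68 ± 0.27, adjusted p = 0.244), and the others overlapped it. The differences of Ccne2 (-0.62 ± 0.33, adjusted p = 0.299) and E2f1 (-0.35 ± 0.19, adjusted p = 0.308) did not pass either.

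The S to M phase markers include Ccna2, cyclin A, Mki67, the Ki-67 antigen used by pathologists to count cycling cells, and Top2a, the topoisomerase that untangles sister chromosomes. Mki67 (chromosome 7, 135689784 to 135716361, minus strand) had 37.9, 49.97 and 38.9 FPKM with vehicle in T2106, 18.5, 28.7 and 20.9 with the full-dose and 28.5, 14.9 and 23.98 with the lower-dose combination. It had 31.7, 28.8 and 36.4 with serplulimab, 31.7, 40.3 and 29.1 with HLX53 and 30.4, 38.03 and 31.4 with pembrolizumab and tiragolumab. The 3 groups given serplulimab lay below the vehicle tumours and the other two overlapped them, with a full-dose difference of -0.89 ± 0.22 (adjusted p = 0.0125). In T2215 it had 37.5, 32.95 and 32.1 with vehicle, 16.4, 18.5 and 26.5 with the full-dose combination, 17.1, 31.2 and 29.9 with pembrolizumab and HLX53, 18.6, 29.8 and 16.9 with serplulimab and 28.4, 19.3 and 34.5 with HLX53. It had 28.6, 29.2 and 30.9 with pembrolizumab, 33.99, 27.1 and 26.9 with tiragolumab, 33.1, 26.1 and 36.2 with serplulimab and tiragolumab and 26.2, 30.8 and 31.7 with pembrolizumab and tiragolumab. There 5 of 8 treated groups lay wholly below vehicle, and the overlapping ones were HLX53, tiragolumab and serplulimab with tiragolumab. The full-dose difference was -0.75 ± 0.24 (adjusted p = 0.239), and serplulimab alone differed by -0.68 ± 0.24 (adjusted p = 0.387).

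Ccna2 (chromosome 3, 36564865 to 36572150, minus strand) measured 101, 127 and 97.8 FPKM with vehicle in T2106, 28.8, 63.96 and 37.1 with the full-dose and 61.3, 24.6 and 85.04 with the lower-dose combination. Serplulimab gave 56.3, 67.3 and 70.1, HLX53 80.4, 74.5 and 68.4 and pembrolizumab with tiragolumab 83.5, 77.8 and 71.8. All treated tumours were below the vehicle tumours, and the full-dose difference was -1.39 ± 0.35 (adjusted p = 0.0128). In T2215 it measured 102, 76.5 and 86.2 with vehicle, 59.1, 35.2 and 70.5 with the full-dose combination, 39.9, 82.5 and 56.9 with pembrolizumab and HLX53, 51.5, 75.95 and 75.4 with serplulimab and 75.4, 42.9 and 83.98 with HLX53. Pembrolizumab gave 72.96, 81.3 and 66.2, tiragolumab 112, 79.2 and 81.6, serplulimab with tiragolumab 78.96, 74.1 and 88.95 and pembrolizumab with tiragolumab 68.3, 73.1 and 65.98. The full-dose combination (-0.73 ± 0.27, adjusted p = 0.239), serplulimab, and pembrolizumab with tiragolumab lay below vehicle, while 1 tiragolumab tumour was the highest of all 27.

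Top2a (chromosome 11, 98992943 to 99024189, minus strand) measured 126, 103 and 135 FPKM with vehicle in T2106, 50.2, 102 and 65.1 with the full-dose and 102, 43.6 and 94.5 with the lower-dose combination. It measured 91.5, 106 and 119 with serplulimab, 119, 95.3 and 112 with HLX53 and 115, 117 and 97.3 with pembrolizumab and tiragolumab. The 2 combinations of serplulimab with HLX53 lay below vehicle and the other groups overlapped it, with a full-dose difference of -0.80 ± 0.29 (adjusted p = 0.0371). In T2215 it measured 152, 103 and 139 with vehicle, 76.2, 54.2 and 107 with the full-dose combination, 67.5, 134 and 102 with pembrolizumab and HLX53, 72.3, 112 and 143 with serplulimab and 121, 73.7 and 119.9 with HLX53. It measured 109, 119 and 106 with pembrolizumab, 137, 119 and 104 with tiragolumab, 119, 115 and 130.2 with serplulimab and tiragolumab and 94.3, 106 and 99.8 with pembrolizumab and tiragolumab. All 8 groups overlapped vehicle, including the full-dose combination (-0.76 ± 0.26, adjusted p = 0.239). Melk, a kinase of cycling cells and the fourth gene of the class, fell from a mean of 21.8 to 9.46 FPKM in T2106 (-1.24 ± 0.35, adjusted p = 0.0175).

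The mitosis genes begin with the kinase that starts M phase and its cyclin. Cdk1 (chromosome 10, 69335146 to 69352938, minus strand) stood at 212, 192 and 209 FPKM with vehicle in T2106, 76.8, 158 and 95.9 with the full-dose and 159, 68.4 and 176 with the lower-dose combination. It stood at 138, 175 and 158 with serplulimab, 171, 162 and 162 with HLX53 and 198, 186 and 166 with pembrolizumab and tiragolumab. Only the last of these groups overlapped vehicle, and the full-dose difference was -0.95 ± 0.29 (adjusted p = 0.0222). In T2215 it stood at 226, 175 and 204 with vehicle, 139.5, 76.9 and 167 with the full-dose combination, 102, 176 and 136 with pembrolizumab and HLX53, 119.8, 191 and 181 with serplulimab and 187, 115 and 181 with HLX53. It stood at 181, 194 and 168 with pembrolizumab, 227, 159 and 180.1 with tiragolumab, 169.5, 176 and 181 with serplulimab and tiragolumab and 160, 168 and 156 with pembrolizumab and tiragolumab. The full-dose combination (-0.72 ± 0.25, adjusted p = 0.239) and pembrolizumab with tiragolumab lay below vehicle.

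Ccnb1, cyclin B1 (chromosome 13, 100778650 to 100786570, minus strand), had 70.3, 53.9 and 68.03 FPKM with vehicle in T2106, 21.96, 52.6 and 28.3 with the full-dose and 47.6, 16.5 and 37.2 with the lower-dose combination. Serplulimab gave 44.6, 51.2 and 53.4, HLX53 57.2, 39.1 and 54.3 and pembrolizumab with tiragolumab 61.4, 54.8 and 55.2. The 3 serplulimab groups were below vehicle, with a full-dose difference of -0.98 ± 0.34 (adjusted p = 0.0316). In T2215 it had 72.9, 53.9 and 61.8 with vehicle, 38.5, 23.8 and 45.4 with the full-dose combination, 28.5, 56.4 and 40.4 with pembrolizumab and HLX53, 33.5, 56.4 and 39.5 with serplulimab and 54.95, 29.2 and 60.2 with HLX53. Pembrolizumab gave 52.5, 59.3 and 49.1, tiragolumab 75.7, 51.8 and 60.4, serplulimab with tiragolumab 56.1, 50.6 and 59.1 and pembrolizumab with tiragolumab 53.7, 57.96 and 49.4. The full-dose combination was again the only group wholly below vehicle (-0.84 ± 0.27, adjusted p = 0.239).

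Plk1, the Polo kinase of spindle assembly (chromosome 7, 122159439 to 122169873, plus strand), measured 53.2, 76.7 and 50.04 FPKM with vehicle in T2106, 16.2, 36.3 and 21.6 with the full-dose and 33.5, 13.8 and 47.2 with the lower-dose combination. It measured 31.7, 35.1 and 35.2 with serplulimab, 38.4, 40.9 and 34.3 with HLX53 and 45.1, 33.2 and 32.9 with pembrolizumab and tiragolumab. All treated tumours were below vehicle, and the full-dose difference was -1.32 ± 0.36 (adjusted p = 0.0152). In T2215 it measured 66.1, 36.96 and 47.7 with vehicle, 26.5, 21.4 and 33.3 with the full-dose combination, 22.2, 51.5 and 28.8 with pembrolizumab and HLX53, 27.5, 38.1 and 38.99 with serplulimab and 43.2, 22.5 and 44.7 with HLX53. It measured 39.4, 47.01 and 36.4 with pembrolizumab, 54.4, 43.2 and 40.1 with tiragolumab, 44.2, 41.7 and 48.3 with serplulimab and tiragolumab and 36.1, 45.3 and 33.04 with pembrolizumab and tiragolumab. Vehicle replicate 1 was far above the rest, and the full-dose combination alone did not overlap vehicle (-0.86 ± 0.28, adjusted p = 0.239).

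Birc5, survivin, a subunit of the chromosomal passenger complex, stood at 121, 141 and 125 FPKM with vehicle in T2106, 56.9, 94.3 and 68.6 with the full-dose and 89.1, 43.3 and 116 with the lower-dose combination. Serplulimab gave 87.1, 88.4 and 84.7, HLX53 102, 89.3 and 100.4 and pembrolizumab with tiragolumab 105, 87.6 and 86.6. All treated tumours were below vehicle, with a full-dose difference of -0.84 ± 0.27 (adjusted p = 0.0242). In T2215 it stood at 137, 93.2 and 108 with vehicle, 71.3, 59.01 and 86.9 with the full-dose combination, 61.1, 105 and 68.5 with pembrolizumab and HLX53, 69.4, 95.1 and 141 with serplulimab and 94.3, 59.4 and 97.9 with HLX53. Pembrolizumab gave 85.2, 101 and 86.1, tiragolumab 126, 85.5 and 95.1, serplulimab with tiragolumab 92.6, 102 and 97.4 and pembrolizumab with tiragolumab 78.6, 90.2 and 79.1. The highest of all 27 tumours was replicate 3 of serplulimab, and the full-dose combination (-0.64 ± 0.24, adjusted p = 0.240) and pembrolizumab with tiragolumab lay wholly below vehicle.

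The largest falls among the mitosis genes in T2106 were those of Foxm1, Kif20a and Ube2c. Foxm1, the forkhead factor that switches on the mitosis genes (chromosome 6, 128362967 to 128376146, plus strand), had 87.7, 99.7 and 86.2 FPKM with vehicle and 16.2, 51.1 and 21.7 with the full-dose combination, and fell by 1.77 ± 0.51 on the log2 scale (adjusted p = 0.0182). Exons of Tex52 and Gm44596 overlap those of Foxm1 on the same strand. Kif20a, the kinesin of the central spindle, had a mean of 81.0 FPKM with vehicle and 29.4 with the combination (-1.62 ± 0.47, adjusted p = 0.0185). Ube2c, the ubiquitin-conjugating enzyme that works with the anaphase-promoting complex, had 343.8 and 128.8 (-1.52 ± 0.46, adjusted p = 0.0209). The smallest falls of the class were those of the centromeric histone Cenpa (-0.70), the passenger subunit Cdca8 (-0.71) and cyclin B2, Ccnb2 (-0.77).

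The lower-dose combination also had lower division transcripts than vehicle, with 1 gene past the threshold. Its median member difference from vehicle in T2106 was -0.92, and 1 of 45 members fell at an adjusted p under 0.05, where 0.67% of all genes fell. That gene was Hjurp, the chaperone that loads the centromeric histone (chromosome 1, 88262471 to 88277633, minus strand), with 90.8, 77.6 and 86.5 FPKM with vehicle and 47.01, 19.4 and 44.7 with the lower-dose combination (-1.29 ± 0.27, limma adjusted p = 0.0465). At an unadjusted p under 0.05, 40 of 45 were lower against 19.8% of all genes, and 39 lay wholly below vehicle against 16.3%. Limma called 0 members without replicate 2, the lowest tumour of the experiment, 0 without any 1 of the vehicle tumours, 10 without replicate 1 and 42 without replicate 3. Compared with each other, the 2 doses gave 0 called members (0.00664% of all genes fell), a median difference of -0.17 and a range from -0.55 to 0.32. Mcm6, Gins2, Tk1, Mki67, Ccnb1, Ccnb2, Bub1b and Cenpa were on the other side of 0 from that median. Without replicate 2 of the lower-dose group the full dose was lower by a median of -0.64, with 29 members called. The share of all genes called in these leave-out refits is not given, so the counts cannot be set against it.

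The antibodies given alone, and the comparator pair, had smaller median differences from vehicle in T2106. With serplulimab limma called 0 of 45 members (0% of all genes fell, smallest adjusted p = 0.487) and 5 passed at an unadjusted p under 0.05 against 5.75% of all genes. Its median was -0.43, and 40 members lay wholly below vehicle against 16.6% of genes. With HLX53 limma called 0 (0.00664% of genes fell) and 2 passed unadjusted (2.06%), with a median of -0.32 and 35 not overlapping (10.3%). With pembrolizumab and tiragolumab limma called 0 (0% of genes fell) and 1 passed unadjusted (3.12%), with a median of -0.27 and 25 not overlapping (16.4%). Gins2, a helicase-complex subunit, Pcna and E2f1 were the members not lower there, with differences between 0.01 and 0.03. The spread of each gene was estimated over all groups of T2106, of which the combination groups spread the most. The lack of calls for these smaller differences was therefore not measured against the spread of the compared groups alone.

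Against the other antibody groups of T2106, the full-dose combination gave calls against the comparator pair above the share of all genes, and against each single antibody no more than that share. Against pembrolizumab with tiragolumab, 19 of 45 fell (16.8% of all genes), namely 4 of 14 replication genes, 1 of 3 G1/S regulators, 1 of 4 S to M phase markers and 13 of 24 mitosis genes, with a median of -0.72. Hjurp (-1.10, adjusted p = 0.0105), Foxm1 (-1.42, adjusted p = 0.0389) and Kif20a (-1.22) led the mitosis genes, and Cdc45 (-0.86), Tyms (-0.72) and Rrm1 (-0.68) the replication genes. E2f1 (-0.63) and Ccna2 (-0.91) were the calls of the other classes. Against HLX53 alone, 3 of 45 fell, a smaller share than the 8.69% of all genes. They were Cdc45, a helicase cofactor (-0.94, adjusted p = 0.0464), Hjurp (-1.10, adjusted p = 0.0198) and the checkpoint kinase Bub1 (-0.96, adjusted p = 0.0483). The member median there was -0.70. By limma, 29 of 45 members were lower at an unadjusted p under 0.05, against 3318 of all 15070 genes. Against serplulimab alone, limma called 0 (0.186% of genes fell, smallest member adjusted p = 0.0675), with 9 lower at an unadjusted p under 0.05 (13.1%) and a median of -0.60. Tk1, thymidine kinase, was the member not lower there (0.01). Without the 3 libraries that stood apart, 0 members were called against pembrolizumab with tiragolumab and 0 against HLX53. Leaving out replicate 1, 2 or 3 of the combination gave 0, 40 and 1 calls against pembrolizumab with tiragolumab, and 0, 32 and 0 against HLX53. Leaving out any 1 tumour of pembrolizumab with tiragolumab left 1 call, and leaving out any 1 HLX53 tumour left 0 or 1. With the fibroblast or adipocyte level as a covariate, 0 were called in both and the median turned to 0.25 and 0.32 against pembrolizumab with tiragolumab and to 0.27 and 0.38 against HLX53. Counts were higher with libraries centred on their medians (30 and 7) or with these 2 groups alone in the fit (30 and 18), and lower with no filter (1 and 0). For the leave-out and covariate refits the share of all genes called is not given, so those counts cannot be set against it.

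In T2215 no member passed in any of the 13 comparisons by limma, although the full-dose combination again had the lowest levels. For the full-dose combination against vehicle, 0% of all genes fell at an adjusted p under 0.05 and the smallest adjusted p of a member was 0.239. At an unadjusted p under 0.05, 42 of 45 members were lower, against 12.6% of all genes, and 41 lay wholly below the vehicle tumours, against 15.9%. The 3 that missed the unadjusted threshold were Pcna, Ccne2 and E2f1. The median difference was -0.74 against -0.04 over all genes, with -0.71 for replication genes, -0.62 for G1/S regulators, -0.76 for S to M phase markers and -0.80 for mitosis genes. The largest differences were those of Foxm1 (-1.12 ± 0.38), of Cenpf, a kinetochore protein (-1.07), and of Kif20a (-0.99), none past the threshold. Without replicate 2, the library that stood apart, the median was -0.51 and 12 members were lower at an unadjusted p under 0.05, with the share of all genes not given. Whether the effect of this combination differed between the experiments was not tested, since they were never fitted together.

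The other arms of T2215 gave smaller median differences from vehicle, and limma called 0 members in each. Pembrolizumab with HLX53 had a median of -0.55, with 17 lower at an unadjusted p under 0.05 (4.99% of all genes) and a smallest adjusted p of 0.736. Serplulimab had -0.41, with 4 (9.78%), and HLX53 -0.36, with 3 (0.677%). Pembrolizumab with tiragolumab had -0.28, with 2 (3.71%), pembrolizumab -0.20, with 0 (0.691%), serplulimab with tiragolumab -0.14, with 0 (0.51%), and tiragolumab -0.11, with 0 (0.456%). Members on the other side of 0 were E2f1 with pembrolizumab, Cdc45 and Ccna2 with tiragolumab, and Cenpf with serplulimab and tiragolumab. Within an experiment, all comparisons with vehicle share the same 3 vehicle tumours.

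Pooling arms of T2215 set the 2 anti-TIGIT antibodies apart more than the 2 anti-PD-1 antibodies, without a call. The 9 tumours given HLX53, alone or with an anti-PD-1 antibody, had a median member difference of -0.35 from the 9 given tiragolumab, and 35 of 45 were lower at an unadjusted p under 0.05, against 15.5% of all genes. The smallest adjusted p of a member by limma was 0.155, so none passed. Ccnb1 had a mean of 41.9 FPKM in the HLX53 arms and 57.2 in the tiragolumab arms (-0.50 ± 0.16), and Kif20a 42.8 and 60.2 (-0.58 ± 0.19). The serplulimab arms differed from the pembrolizumab arms by a median of -0.12, with 0 at an unadjusted p under 0.05 (5.17%), and Gins2, Tk1, Ccnb2, Cdca8, Birc5, Cenpa and Nusap1 on the other side of 0. Any anti-PD-1 antibody against none gave -0.23 with 7 (5.95%), and any anti-TIGIT antibody against none gave -0.16 with 2 (3.03%). The full-dose combination against pembrolizumab with tiragolumab gave -0.50, with 0 called (0.0134% of all genes fell), 16 at an unadjusted p under 0.05 (9.73%) and a smallest adjusted p of 0.223. Markers of several cell types moved with the contrast of HLX53 and tiragolumab arms, where 11.1% of all genes were higher in the HLX53 arms at an unadjusted p under 0.05. By that rule 10 of 10 T cell markers (median 1.21), 5 of 6 tested neutrophil markers (1.22) and 3 of 10 fibroblast markers (0.95) were higher. So were 2 of 4 tested B and plasma cell markers (0.61) and 2 of 8 tested epithelial markers (0.80). For adipocytes (1.03) and for macrophages and monocytes (0.43) it was 1 of 10 each, no more than the share of all genes. For endothelium (0.37) it was 0 of 8. Of the 5 tumours of T2215 with the lowest division level, 4 were in the HLX53 arms. With the adipocyte or fibroblast level as a covariate the member median was -0.25 or -0.16 with 19 or 3 members lower at an unadjusted p under 0.05. The share of all genes in these fits is not given, and the part of the T cell and neutrophil markers was not tested.

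Mitosis genes were lower than replication genes by a small amount in most comparisons. The median difference of the mitosis genes lay below that of the replication genes in 20 of the 22 comparisons, many of which share tumours. The exceptions were tiragolumab against vehicle (-0.09 against -0.16) and the serplulimab arms against the pembrolizumab arms (-0.11 against -0.12), both in T2215. Within a tumour, the mean log2 level of the 14 replication genes minus that of the 24 mitosis genes was -0.07, -0.04 and -0.01 in the vehicle tumours of T2106. It was 0.50, 0.18 and 0.41 with the full-dose combination and 0.24, 0.48 and 0.07 with the lower-dose combination. All 6 combination tumours lay above the 3 vehicle tumours, with group means of 0.366 ± 0.168 and 0.260 ± 0.205 against -0.040 ± 0.027 (SD, n = 3). Serplulimab (0.110 ± 0.0355), pembrolizumab with tiragolumab (0.105 ± 0.0802) and HLX53 (0.0654 ± 0.0922) lay between. Every tumour given serplulimab alone (0.09, 0.15 and 0.08) or pembrolizumab with tiragolumab (0.19, 0.03 and 0.09) also lay above the vehicle tumours. Of the HLX53 tumours (-0.02, 0.06 and 0.16), replicate 1 lay within the vehicle range. In T2215 the groups differed less, from 0.173 ± 0.0316 with tiragolumab and 0.229 ± 0.037 with vehicle to 0.323 ± 0.0586 with the full-dose combination and 0.353 ± 0.0888 with pembrolizumab and HLX53. No test is given for these means, since the genes were chosen with results known.

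**Figure D4:**
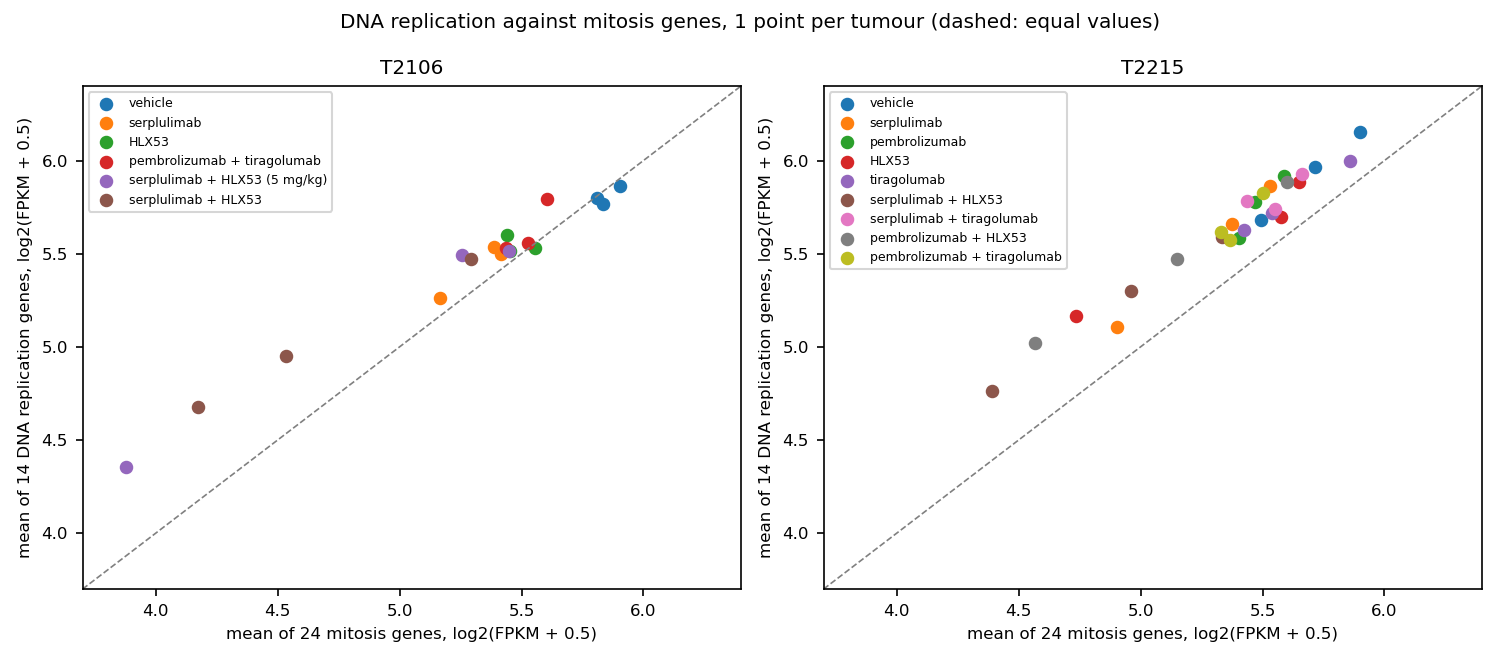
Mean log2(FPKM + 0.5) of the 24 mitosis genes (horizontal axis) against that of the 14 replication genes (vertical axis), with a point for each tumour coloured by treatment, in T2106 and T2215. In T2106 the 3 tumours with the lowest division levels lie further above the line of equal values (0.41 to 0.50) than the vehicle tumours (-0.07 to -0.01). In T2215 the vehicle tumours lie at 0.19 to 0.25. Of the lowest tumours there, replicates 2 and 1 of the full-dose combination lie at 0.37 and 0.34. Replicate 1 of pembrolizumab with HLX53 lies at 0.45, replicate 2 of HLX53 at 0.43 and replicate 1 of serplulimab at 0.21.

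Other genes of the same pathways were read from separate lists. In the full-dose comparison of T2106, 42 of 45 further mitosis genes fell (median -1.07), among them the kinesin Kif18b (-1.51) and the spindle protein Ckap2l (-1.51). Of 40 further replication genes 23 fell (median -0.67), among them the polymerase subunits Pold2 (-1.30) and Pola2 (-0.79) and the kinase activator Dbf4 (-1.27). Of 14 G1 cyclins, kinases and E2F factors 9 fell (median -0.80), with E2f7 at -1.67, Ccnd2 at -0.70 and Cdk2 at -0.56. Of 19 brakes on the cycle 4 fell and 6 rose, shares near the 20.6% of all genes that fell and the 23.4% that rose, and their median was 0.05. Cdkn2b, the p15 inhibitor of cyclin D kinases, rose by 1.56 ± 0.32 (limma adjusted p = 0.00873), Btg2 by 1.89 and Gas1 by 4.32, while Fzr1 (-0.39), Cdkn2c (-0.47) and Lin54 (-0.52) fell. Of 12 p53 target genes 3 fell (Gtse1, Bbc3 and Eda2r), 1 rose (Trp53inp1, 1.63) and the median was -0.15, so the share that fell was also near that of all genes. In T2215 no gene of these lists passed, and the medians were -0.82 for further mitosis genes, -0.62 for further replication genes and 0.02 for brakes.

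Transcripts of several other cell types were higher in the full-dose tumours of T2106, where division transcripts were lower and 23.4% of all genes rose. Against vehicle, 10 of 10 adipocyte markers rose (median 4.62), 10 of 10 macrophage and monocyte markers (1.64), 9 of 10 fibroblast markers (2.86), 6 of 7 neutrophil markers (3.39), 6 of 6 B and plasma cell markers (2.05) and 6 of 8 endothelial markers (1.53). Of the T cell markers 2 of 10 rose, no more than the share of all genes, with a median of 1.25. Of 8 tested epithelial markers 7 rose and Krt20 fell, and mean Epcam was 8.84 and Krt8 28.4 FPKM in the combination tumours. The skin keratinocyte markers Krt5 (2.96), Krt14 (2.57) and Krt15 (1.14) rose as well, to mean FPKM of 4.32, 3.13 and 0.60. The mean log2 level of that list was -0.75, -0.56 and -0.67 with vehicle and 0.20, 0.25 and 0.23 in the full-dose tumours. Which cells made the epithelial transcripts was not tested. The mean log2 level of the fibroblast list was 3.704, 4.91 and 3.98 in the vehicle tumours and 7.42, 6.93 and 7.38 in the full-dose tumours, and that of the adipocyte list 0.91, 3.60 and 1.54 against 6.08, 5.84 and 6.13. With the fibroblast level as a covariate limma called 0 members (median -0.19), and with the adipocyte level 0 (median -0.19). Groups held 70.5% and 75.2% of the variance of these levels, so that treatment and tissue makeup cannot be told apart in this fit.

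The 3 tumours with the lowest division level in T2106 were the 3 with the highest fibroblast level, and the 5 lowest of T2215 were its 5 highest. In T2215 these were replicate 2 of the full-dose combination (division level 4.45, fibroblast level 7.58), replicate 1 of pembrolizumab with HLX53 (4.66 and 7.18), replicate 2 of HLX53 (4.82 and 7.05), replicate 1 of serplulimab (4.88 and 7.26) and replicate 1 of the full-dose combination (5.01 and 6.27). They came from 4 treatment groups. Replicate 1 of serplulimab also had a mean log2 level of skeletal muscle markers of 9.50, against -0.31, -0.50 and -0.43 with vehicle. In T2106 the lowest tumour, replicate 2 of the lower-dose combination, had 2.16. Muscle levels of 4.17 and 2.45 in replicate 3 of pembrolizumab with tiragolumab and replicate 2 of serplulimab with tiragolumab in T2215 went with division levels of 5.36 and 5.48. The part of muscle tissue was not tested. The sixth lowest, replicate 3 of pembrolizumab with HLX53, ranked 20 of 27 in fibroblast level, so the order did not hold throughout. FPKM is a share of each library, so these levels are not independent of each other. In the full-dose comparison of T2215 the fibroblast markers had a median of 1.30 and the adipocyte markers 1.73, with 0 markers called, and the member median was -0.45 with the fibroblast and -0.57 with the adipocyte level as a covariate.

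**Figure D5:**
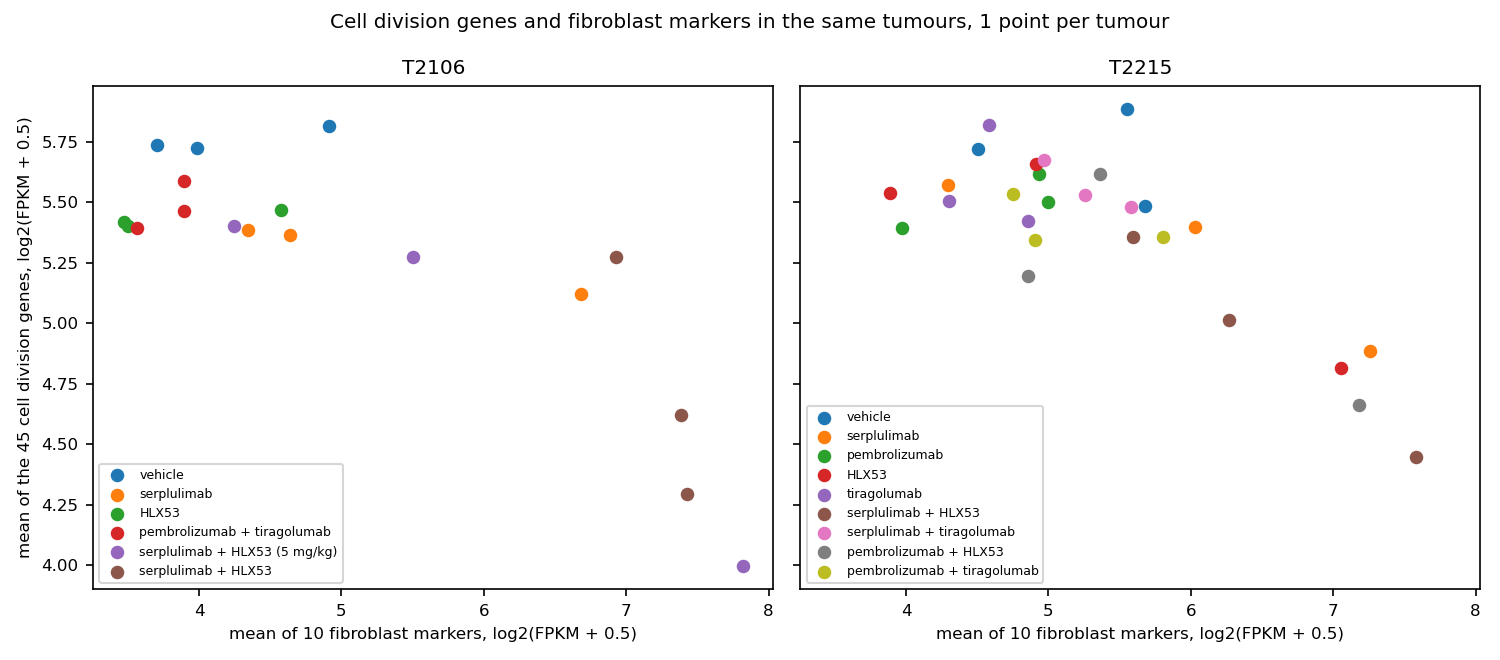
Mean log2(FPKM + 0.5) of the 10 fibroblast markers (horizontal axis) against that of the 45 cell division genes (vertical axis), with a point for each tumour coloured by treatment. In T2106 the lowest tumour has a division level of 3.997 and a fibroblast level of 7.82, and in T2215 the lowest has 4.45 and 7.58.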

How the data were processed

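Whole-tumour RNA from 45 CT26 tumours was sequenced, and the authors deposited a table of log2 FPKM per gene and tumour for each experiment (18 tumours in T2106 and 27 in T2215). Per the submitters' processing notes, FastQC, Trimmomatic, STAR and Bowtie were used with the builds hg19, GRCh37 and mm10. As for the program behind the FPKM values, it was not given in the sources used here, and read depth is unknown, so no counting interval is given.

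The deposited log2 values were turned back into FPKM, and log2(FPKM + 0.5) was fitted with limma 3.58.1 (R 4.3.3), with trend and empirical Bayes, over all groups of an experiment. Genes needed 0.5 FPKM in at least 3 libraries. P-values were adjusted by Benjamini-Hochberg over all genes tested, with a threshold of 0.05. The 2 experiments were never fitted together. There were 22 comparisons, and fold changes on this scale understate those of low genes. On simulated data for the full-dose comparison of T2106 (14712 genes), the fit recovered 72% of genes changed by 1 on the log2 scale. Of those changed by 2 it recovered 92%. For that of T2215 (14913 genes) the shares were 81% and 93%. False calls made up 5.2% of the calls on the simulated data for T2106 and 6.45% for T2215. Whether such shares hold for the real tumours was not tested.

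The members, their roles and the 19 lists were chosen with earlier results of these data known. Every tumour's value is given for a panel of 12 genes. Of the other members, the text names up to 3 per role with the largest change among those past the threshold, and those whose change had the opposite sign to the median; Foxm1, Cenpf and Kif20a in T2215, Cenpa, Cdca8 and Ccnb2 in T2106, Ccnb1 and Kif20a in the pooled arms and the promoters printed were picked after their values were seen. Of the other lists, up to 3 genes per direction with the smallest p are named. Gene positions are from GENCODE M21 (GRCm38), where all 45 members were found. Exons of 15 members overlap another gene on either strand, and whether the authors' values use strand is unknown here. Alternatives were other pseudocounts and filters, median centring, only the groups compared, the replicate number as a block, no trend, covariates for adipocyte and fibroblast levels, and leaving out tumours. The fibroblast covariate and leaving out the libraries that stood apart were added after seeing the data.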

Additional observations from a re-analysis of the deposited data

How the results depend on the processing

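The 4 comparisons with calls depended on the settings below. For the full-dose combination against vehicle in T2106 (43 called), pseudocounts of 0.1 and 1, a filter at 1 FPKM and median centring gave 43, only the groups compared 44, no trend 41 and the replicate block 36. No filter gave 9, leaving out the libraries that stood apart 1 and either covariate 0. For the lower-dose combination (1 called), no filter, centring, only the groups compared, the block and both covariates each gave 0. Against HLX53 (3 called), no filter, both covariates and leaving out the libraries that stood apart gave 0, the block 1, centring 7 and only the groups compared 18. Against pembrolizumab with tiragolumab (19 called), both covariates and leaving out those libraries gave 0, no filter 1, the block 4, and centring and only the groups compared 30 each. Centring moved the share of all called genes that were lower from 2526 of 6414 to 3492 of 7062 there, and from 101 of 154 to 18 of 80 for the lower-dose combination. The share of all genes called under the other settings is not given.

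Leaving out a tumour gave 0 to 45 calls for the full-dose and 0 to 42 for the lower-dose combination against vehicle, 0 to 32 against HLX53, 0 to 40 against pembrolizumab with tiragolumab, 0 to 1 against serplulimab and 0 to 29 between the 2 doses, all in T2106, and 0 to 1 for serplulimab against vehicle in T2215. The other comparisons kept 0 calls each time. The share of all genes called is not given for these refits, so their counts show only how far the calls depended on single tumours. Replicate numbers did not pair the tumours: samples with the same number did not deviate together in every pair, so the replicate block only shows what a shared number would do.

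Differences that turned positive with the adipocyte covariate were, against vehicle, E2f1 0.12, Top2a 0.0173 and Pcna 0.21, against HLX53, Cdc45 0.26 and Bub1 0.29, and against pembrolizumab with tiragolumab, Cdc45 0.33, Tyms 0.008, Rrm1 0.32, E2f1 0.29, Ccna2 0.30, Foxm1 0.45 and Kif20a 0.40. With the fibroblast covariate they were, against vehicle, Mcm7 0.0668, E2f1 0.13 and Pcna 0.21, against HLX53, Cdc45 0.21 and Bub1 0.15, and against pembrolizumab with tiragolumab, Cdc45 0.31, Tyms 0.0311, Rrm1 0.25, E2f1 0.20, Ccna2 0.17, Foxm1 0.34 and Kif20a 0.32. The cause was not tested.

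With medians in place of means, the replication level minus the mitosis level was -0.12 in the vehicle tumours of T2106 and 0.17 in those of T2215. With the G1/S regulators counted as replication and the S to M phase markers as mitosis genes, it was -0.25 with vehicle, -0.12 with pembrolizumab and tiragolumab, -0.16 with HLX53, -0.11 with serplulimab, 0.0399 with the lower-dose and 0.11 with the full-dose combination in T2106. In T2215 it was then -0.0279 with vehicle, 0.0329 with pembrolizumab, 0.0325 with serplulimab, 0.0311 with HLX53, -0.0736 with tiragolumab, 0.0895 with the full-dose combination, 0.0112 with serplulimab and tiragolumab, 0.091 with pembrolizumab and HLX53 and 0.0261 with pembrolizumab and tiragolumab. Depth is unknown, and 3 tumours a group limit the precision.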
